A study of Mus musculus with 9 samples.

Results

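The Runx1 and Gata2 loci were examined for peaks of the transcription factors TGIF1 and MEIS1 in mouse leukaemia cells. A peak belonged to a locus when its interval overlapped a fixed window of the mm9 genome build by at least 1 bp. The Runx1 window ran on chromosome 16 from 92550000 to 92900000, and the Gata2 window on chromosome 6 from 88000000 to 88250000. Of 182249 peaks in the 8 deposited lists, 172 belonged to the loci, 118 at Runx1 and 54 at Gata2. Merged wherever they overlapped across lists, they formed 39 regions at Runx1 and 18 at Gata2.

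The cells were c-kit+ bone marrow cells of C57BL/6 mice, transformed with the fusion oncogene MLL-AF9. All of them, controls included, had also been transduced with pMIG-TGIF1-ER, which joins TGIF1 to an estrogen receptor part that 4-hydroxytamoxifen (4-OHT) activates. Chromatin immunoprecipitation and sequencing was done after 20 h of 4-OHT or after ethanol (EtOH), the antibodies being H-172 against TGIF and one against Meis. The 4 groups were therefore TGIF1 4-OHT, TGIF1 EtOH, MEIS1 4-OHT and MEIS1 EtOH, with 2 libraries in each. No group received 4-OHT without TGIF1-ER, so an effect of the drug and one of TGIF1-ER cannot be told apart. A list for the IgG control was not analysed here, and peak positions give no check of the cell type against its markers. Nothing states that replicate libraries stem from independent cultures; p-values then measure only the spread between these libraries, which may be technical.

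RUNX1 is a DNA-binding subunit of core-binding factor and is needed for blood stem cells to arise in the embryo. GATA2 is a zinc-finger factor that maintains blood stem and progenitor cells. Both genes are known for control by distant enhancers within and around them. TGIF1, a repressor of the TGF-beta and retinoid pathways, and MEIS1, a partner of HOX and PBX proteins in leukaemia, are homeodomain proteins of the same TALE class. Both are known to recognise DNA with the core TGACA.

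The reference sequences at hand for these genes were promoters from RefSeq, build GRCm38.p6, 250 bases before to 50 bases after a start site, with 2 entries for each gene. They are shown because promoters are a regulatory part of both genes, and the core TGACA, searched on both strands, is in capitals. The first entry of each gene is printed from 5′ to 3′ in the direction of the gene, which is the minus strand of chromosome 16 for Runx1 and the plus strand of chromosome 6 for Gata2.
Runx1: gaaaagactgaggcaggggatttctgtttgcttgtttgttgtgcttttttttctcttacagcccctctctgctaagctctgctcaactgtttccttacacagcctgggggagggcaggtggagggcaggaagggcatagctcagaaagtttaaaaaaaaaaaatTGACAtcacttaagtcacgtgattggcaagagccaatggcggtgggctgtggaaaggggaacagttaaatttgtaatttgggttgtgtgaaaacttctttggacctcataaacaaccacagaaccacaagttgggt
Gata2: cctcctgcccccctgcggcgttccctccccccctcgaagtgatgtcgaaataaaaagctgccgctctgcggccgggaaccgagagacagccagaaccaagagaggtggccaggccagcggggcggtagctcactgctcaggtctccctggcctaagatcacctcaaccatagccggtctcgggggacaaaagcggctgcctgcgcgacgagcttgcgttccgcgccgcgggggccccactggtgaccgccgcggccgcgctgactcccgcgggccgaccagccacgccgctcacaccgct
The first Runx1 promoter held the core once, starting at -86 relative to the start site. The second Runx1 promoter and both Gata2 promoters did not hold it. Of 32851 mouse promoters of this length, 45.4% held the core on either strand. The peaks are in mm9 and these promoters in GRCm38.p6, so whether a peak lay on a promoter was not determined. Peaks were likewise not assigned to genes. In the RefSeq gene order Runx1 stands between the protein-coding genes Clic6 and Setd4, and Gata2 between Rpn1 and Dnajb8, and the windows may hold parts of such neighbours.

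At Runx1, TGIF1 peaks were more numerous after 4-OHT, as in the lists as a whole. The 2 TGIF1 4-OHT lists held 8 and 23 peaks in the Runx1 window, against 2 and 0 in the TGIF1 EtOH lists. The groups did not overlap, with means of 15.5 ± 10.6 peaks after 4-OHT and 1 ± 1.41 after EtOH (SD, n = 2 each; two-sided exact permutation p = 0.33, the smallest that 2 against 2 libraries allow). The difference of 14.5 peaks was 7 without TGIF1 4-OHT replicate 2 and 22 without TGIF1 4-OHT replicate 1. The lists differ in length, however, and hold only positions, so sequencing depth is unknown. Per 10000 peaks of its own list, the Runx1 window held 6.59 and 8.54 TGIF1 peaks after 4-OHT, against 7.24 and 0 after EtOH. On that scale the groups overlapped, and the difference was 3.95 (exact permutation p = 0.667). The groups did not overlap when each list was reduced to the upper 50% by length (8.20, exact permutation p = 0.33) or the window widened by 50000 bp (4.54, exact permutation p = 0.33). The cut by length removed both TGIF1 EtOH peaks at Runx1, which were at length percentiles of 28.3 and 23.8. The separation at that setting therefore rests on these 2 short peaks. The difference with whole lists was 0.329 without TGIF1 EtOH replicate 2, whose list has only 592 peaks, and 7.56 without TGIF1 EtOH replicate 1. At the 4-OHT shares, lists as short as those after EtOH would have held 1.82 to 2.36 peaks (replicate 1) and 0.390 to 0.506 peaks (replicate 2). With so few peaks under EtOH, a change in how much of TGIF1 binding falls at Runx1 could not be resolved.

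MEIS1 peak numbers at Runx1 did not separate the treatments. The MEIS1 4-OHT lists held 13 and 30 peaks in the window, against 17 and 25 in the MEIS1 EtOH lists. The difference of the means was 0.5 peaks (exact permutation p = 1.0), and it became -8 when MEIS1 4-OHT replicate 2 was left out and 9 when replicate 1 was. With MEIS1 EtOH replicate 1 left out it was -3.5, and with replicate 2 left out 4.5. Per 10000 peaks the values lay close together, at 6.140 and 6.144 after 4-OHT and 6.48 and 5.74 after EtOH. Their difference of 0.035 (exact permutation p = 1.0) took either sign, 0.403 or -0.333, with MEIS1 EtOH replicate 1 or 2 left out.

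**Figure D1:**
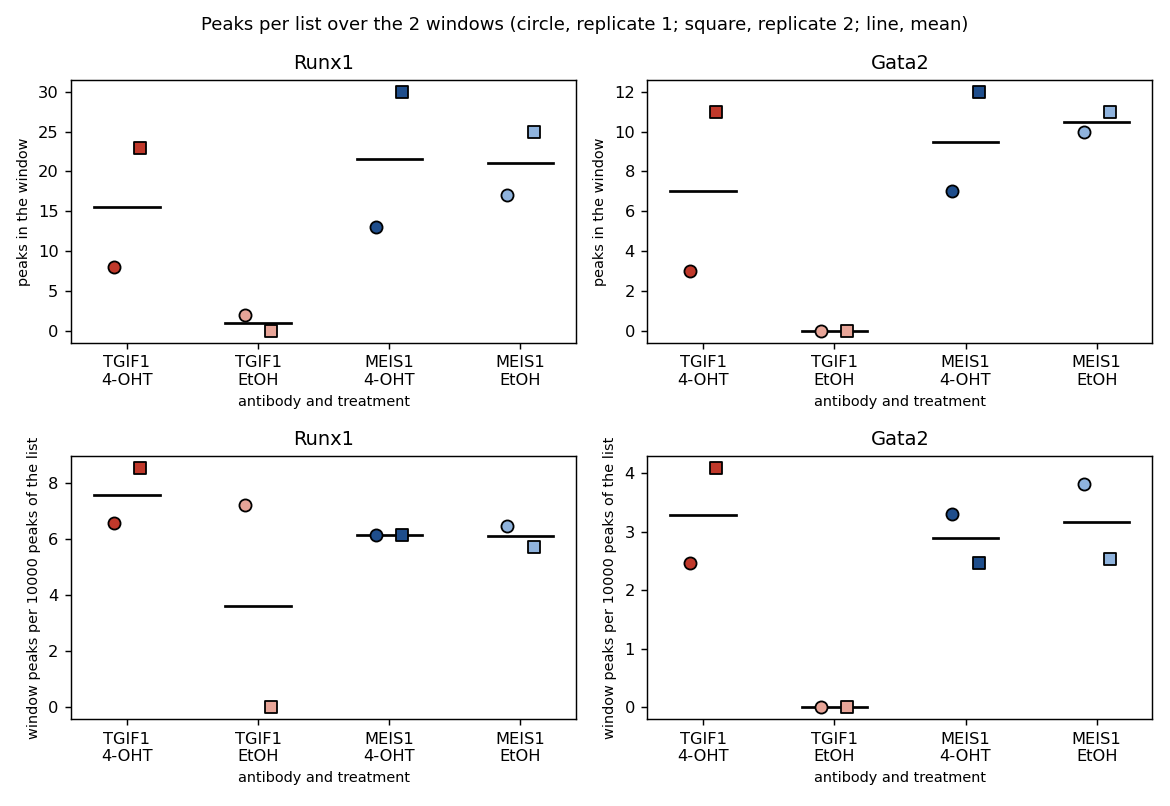
Peaks over the Runx1 and Gata2 windows in each of the 8 lists, as numbers (upper row) and per 10000 peaks of the same list (lower row), by antibody and treatment. Circles are replicate 1, squares replicate 2 and lines group means; at Runx1 TGIF1 4-OHT lists held 8 and 23 peaks against 2 and 0 after EtOH, while the lower panel shows overlapping shares there.

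The Runx1 window was dense in peaks. An even spread over the genome would have put 2.81 to 6.49 MEIS1 peaks and, after 4-OHT, 1.61 to 3.58 TGIF1 peaks into a window of this size, fewer than were found in each list. Among 7519 adjoining windows of the same length, 1.21 to 4.65% held as many peaks or more in the 2 TGIF1 4-OHT and 4 MEIS1 lists. The Gata2 window stood less far out: 5.99 to 17.2% of 10531 windows of its length held at least as many peaks in those 6 lists. Per 10000 peaks of a list, Gata2 held 2.46 to 4.08 and Runx1 5.74 to 8.54 in those lists (windows of 250 and 350 kb).

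Of the 39 Runx1 regions, 16 had peaks of both proteins, 16 had MEIS1 peaks only and 7 had TGIF1 peaks only (41.0, 41.0 and 17.9%). Over all 60709 regions of the genome these shares were 34.2, 55.7 and 10.1%. Of the 7 with TGIF1 only, 6 were in TGIF1 4-OHT replicate 2 alone. The regions formed groups, defined after the data were seen as runs with gaps of at most 5 kb. One lay from 92693381 to 92702831: its 6 regions within 9.45 kb all had a TGIF1 4-OHT peak, 2 of them in both libraries, and none had a peak in all 4 MEIS1 lists. A second group of 7 regions ran from 92608209 to 92625278, with MEIS1 peaks in 6 and TGIF1 4-OHT peaks in 3, these in replicate 2 only. A stretch of 51.5 kb from 92641893 to 92693380, and another of 44.5 kb from 92742569 to 92787092, held no peak in any list.

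**Figure D2:**
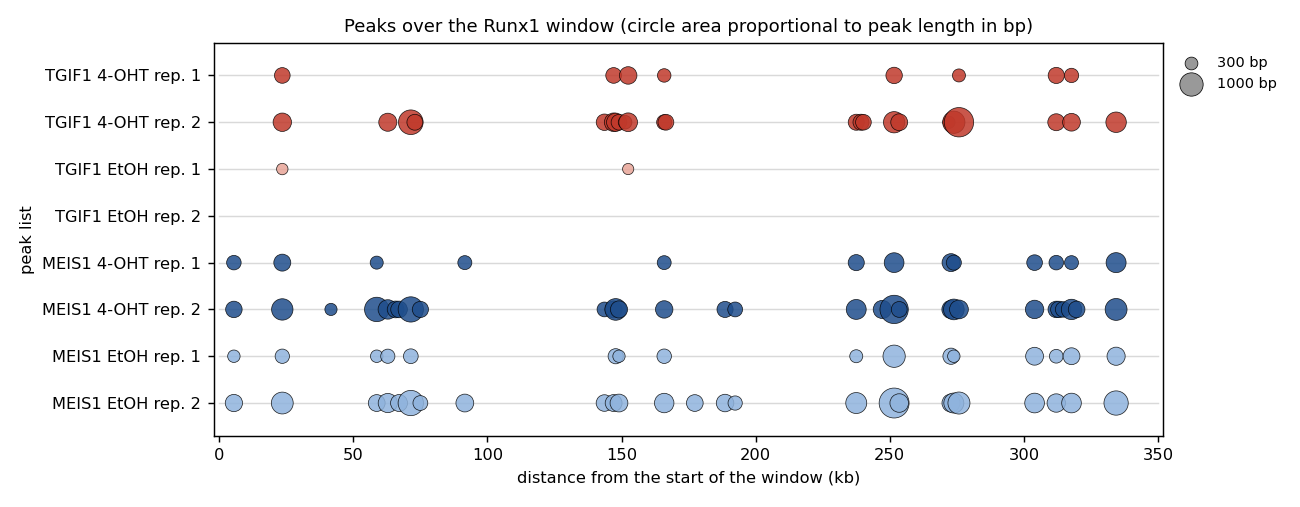
Peaks of the 8 lists (rows) along the Runx1 window, in kb from its start; each circle is a region in that list, with area proportional to peak length in bp. TGIF1 4-OHT peaks appear at 16 regions with MEIS1 peaks and at 7 without. The 2 stretches of 51.5 and 44.5 kb are empty in all lists, and TGIF1 EtOH peaks appear at 2 places in replicate 1 only.

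At Runx1, 5 of the 8 reproducible TGIF1 sites were also reproducible MEIS1 sites, too few to tell whether the share differs from that in the whole genome. A region was called reproducible when both libraries of its group had a peak there. All 8 peaks of TGIF1 4-OHT replicate 1 overlapped one of replicate 2, giving 8 reproducible TGIF1 4-OHT regions. A reproducible MEIS1 EtOH region lay at 5 of them (62.5%, exact 95% interval 24.5 to 91.5%), where 60.9% of all such TGIF1 regions in the genome did. The same number, 5, overlapped a reproducible MEIS1 4-OHT region, against 51% in the genome. Without TGIF1 4-OHT replicate 1, whose list is the shorter, 11 of 23 TGIF1 regions overlapped reproducible MEIS1 EtOH regions. The genome share at that setting was not determined, and 60.9% does not apply to it. By single list, 12 of these 23 TGIF1 peaks overlapped MEIS1 EtOH replicate 1 (44.8% in the genome). For MEIS1 EtOH replicate 2 it was 15 of 23 (72.5% in the genome). In the other direction, 5 of 15 reproducible MEIS1 EtOH regions (33.3%, beside 29.8% in the genome) and 5 of 12 reproducible MEIS1 4-OHT regions (41.7%, beside 28.8%) carried reproducible TGIF1. These genome shares all lie inside the exact 95% (Clopper-Pearson) intervals of the Runx1 shares, which cover counting error only. The intervals treat neighbouring regions of 1 locus as independent, which was not tested. They are also wide, the last running from 15.2 to 72.3%, so likeness to the genome cannot be read from them. Of the 12 regions with a peak in all 4 MEIS1 lists, 8 had TGIF1 after 4-OHT in at least 1 list; in the genome 54.2% did.

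The 5 Runx1 regions with a peak in both TGIF1 4-OHT and all 4 MEIS1 lists were the sites seen most often. The longest, on chromosome 16 from 92800793 to 92802442, had TGIF1 peaks of 497 and 833 bp after 4-OHT, none after EtOH, and MEIS1 peaks of 718 and 1476 bp after 4-OHT, against 914 and 1650 bp after EtOH. MEIS1 EtOH replicate 1 had a second peak there, of 584 bp, and lengths given are those of the longest peak of a list in a region. These MEIS1 peaks were among the longest of their lists, at percentiles of 95.2 to 99.3. Peak length is the only size measure in the lists, and it depends on depth as well as on binding. For some regions it is given also as a percentile within its list. Lengths given in bp alone are not corrected for differences between lists. The median length of a whole list was 438 and 567 bp for TGIF1 4-OHT, against 283 and 336.5 bp for TGIF1 EtOH.

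The region from 92573116 to 92574002 was the one at Runx1 with a peak in 7 of the 8 lists. TGIF1 peaks measured 453 and 623 bp after 4-OHT, against 241 bp in EtOH replicate 1 and none in EtOH replicate 2. MEIS1 peaks measured 530 and 842 bp after 4-OHT, against 378 and 878 bp after EtOH. All 7 summits, the points of highest signal, fell within 36 bp of each other. The other 3 regions of this kind ran from 92715567 to 92716264, from 92861718 to 92862391 and from 92867330 to 92868141. Their TGIF1 4-OHT peaks measured 336 to 579 bp and their MEIS1 peaks 348 to 762 bp.

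One reproducible TGIF1 region at Runx1 had no MEIS1 peak in any list. It lay from 92702132 to 92702831, at the edge of the group of 6. Its TGIF1 peaks were 565 and 643 bp long after 4-OHT, against 232 bp in EtOH replicate 1 and none in EtOH replicate 2, and their 3 summits lay within 20 bp. In the genome 11.1% of reproducible TGIF1 4-OHT regions had no MEIS1 peak in any list. This region and that from 92573116 were the only 2 of the 8 with a TGIF1 peak also under EtOH, beside 21.1% in the genome. Of the 2 places where TGIF1 was called at Runx1 under EtOH, 1 was shared with MEIS1 in all its lists and 1 was free of it in all.

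No reproducible MEIS1 region at Runx1 was lost or gained with 4-OHT. A region counted as lost when it was reproducible after EtOH and without a peak in either 4-OHT list, and as gained in the mirror case. None of 15 MEIS1 EtOH regions was lost, where 2.91% were in the genome, and none of 12 MEIS1 4-OHT regions was gained, where 3.22% were. With so few regions the exact 95% intervals reach 21.8% and 26.5%. Without MEIS1 4-OHT replicate 2, 3 of the 15 had no 4-OHT peak, and without MEIS1 EtOH replicate 1 it was 1 of 25. Without MEIS1 4-OHT replicate 1, 6 of 30 regions had no EtOH peak. Genome shares with a library left out were not determined, so these counts are not set against the genome.

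The length of MEIS1 peaks at the 12 Runx1 regions found in all 4 MEIS1 lists was also compared, a comparison chosen after the data were seen. The mean length percentile was 51.9 and 68.7 in the 4-OHT lists, against 59.2 and 61.8 in the EtOH lists. The difference of -0.16 percentile points was far under the spread between replicates (exact permutation p = 1.0). Leaving out MEIS1 4-OHT replicate 1 made it 8.22 and leaving out replicate 2 made it -8.54. The same for MEIS1 EtOH gave -1.47 (replicate 1 left out) and 1.15 (replicate 2 left out). Over the 11 regions with 1 peak in each MEIS1 list it was 0.031 (exact permutation p = 1.0). Both 4-OHT values were below both EtOH values at 4 of the 12 regions, beside 13.2% in the genome. Those from 92715567, 92800793 and 92861718 also carried TGIF1 in both 4-OHT lists, and one from 92853617 to 92854329 carried none. In the regions from 92573116 and 92867330, also with TGIF1 in both 4-OHT lists, the treatments overlapped. The order at 92800793 was narrow, at 98.3 in MEIS1 4-OHT replicate 2 against 98.6 in MEIS1 EtOH replicate 2. MEIS1 EtOH replicate 1 had a second peak there. Of the 11 regions with 1 peak in each MEIS1 list, 3 were below. Both 4-OHT values were above both EtOH values at the region from 92555242 to 92555790, which carried no TGIF1, beside 13.4% in the genome.

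Gata2 had no TGIF1 peak without induction. The TGIF1 4-OHT lists held 3 and 11 peaks in the Gata2 window, against 0 and 0 in the TGIF1 EtOH lists (means 7 ± 5.66 and 0 ± 0, SD, n = 2 each; two-sided exact permutation p = 0.33, the smallest possible). Both 4-OHT libraries were above both EtOH libraries; the difference of 7 peaks was 3 without TGIF1 4-OHT replicate 2 and 11 without TGIF1 4-OHT replicate 1. Per 10000 peaks of the list the values were 2.47 and 4.08 after 4-OHT, against 0 and 0 after EtOH (exact permutation p = 0.33). At these shares the EtOH lists would have held 0.683 to 1.13 peaks (replicate 1) and 0.146 to 0.242 peaks (replicate 2), so an absence of TGIF1 from Gata2 without induction cannot be read from the empty lists.

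MEIS1 was present at Gata2 under both treatments. The MEIS1 4-OHT lists held 7 and 12 peaks, against 10 and 11 in the MEIS1 EtOH lists, and the ranges overlapped. The difference of -1 peak (exact permutation p = 1.0) became 1.5 when MEIS1 4-OHT replicate 1 was left out and -3.5 when replicate 2 was. Per 10000 peaks the values were 3.31 and 2.46 after 4-OHT and 3.81 and 2.53 after EtOH, a difference of -0.285 (exact permutation p = 0.667). It was -0.709 or 0.139 with MEIS1 4-OHT replicate 1 or 2 left out, and 0.357 or -0.927 with MEIS1 EtOH replicate 1 or 2 left out.

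Of the 18 Gata2 regions, 8 had both proteins, 7 had MEIS1 only and 3 had TGIF1 only (44.4, 38.9 and 16.7%, beside 34.2, 55.7 and 10.1% in the genome). Of the 6 regions found in all 4 MEIS1 lists, 5 had a TGIF1 4-OHT peak, though 4 of these in replicate 2 alone; in the genome 54.2% of such regions had one. All 6 lay from 88003528 to 88073727, and a 37.1-kb stretch without a peak followed. A second stretch of 47.7 kb without a peak ran from 88132249 to 88179959. Beyond it were 3 regions, each with TGIF1 after 4-OHT, that from 88179960 in both libraries and the others in replicate 2 only.

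**Figure D3:**
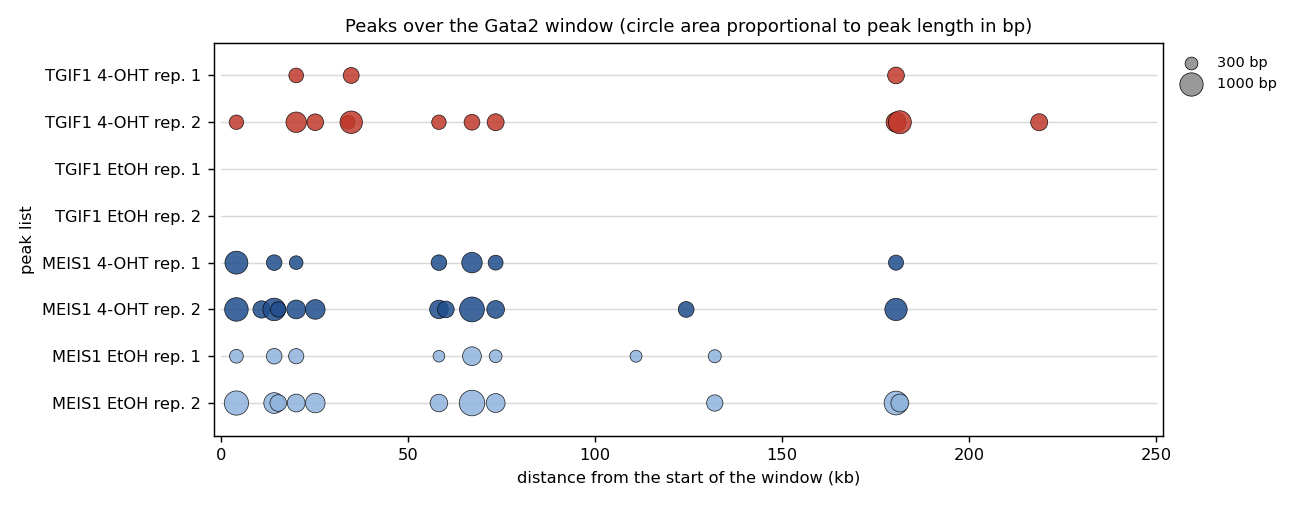
Peaks of the 8 lists (rows) along the Gata2 window, in kb from its start; each circle is a region in that list, with area proportional to peak length in bp. The TGIF1 EtOH rows are empty, the regions in all 4 MEIS1 lists lie left of the first empty stretch, and stretches of 37.1 and 47.7 kb hold no peak.

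All 3 peaks of TGIF1 4-OHT replicate 1 at Gata2 overlapped one of replicate 2, and these 3 reproducible regions had 3 different patterns. The first, on chromosome 6 from 88019649 to 88020468, was the one at Gata2 with a peak in both TGIF1 4-OHT and all 4 MEIS1 lists. Its TGIF1 peaks measured 398 and 770 bp after 4-OHT, with none after EtOH. Its MEIS1 peaks measured 343 and 651 bp after 4-OHT, against 427 and 589 bp after EtOH, so the treatments overlapped.

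The second, from 88034304 to 88035230, carried TGIF1 peaks of 467 and 927 bp after 4-OHT and no peak in the 6 other lists. Its mean length percentile was 71.0, so its peaks were longer than most in their lists. It was the 1 of 3 reproducible TGIF1 regions at Gata2 without MEIS1 in any list (33.3%, exact 95% interval 0.840 to 90.6%, beside 11.1% in the genome).

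The third, from 88179960 to 88180995, carried TGIF1 peaks of 518 and 724 bp after 4-OHT. MEIS1 peaks there measured 419 and 917 bp after 4-OHT, against none in EtOH replicate 1 and 1036 bp in EtOH replicate 2. It thus had reproducible MEIS1 after 4-OHT and a MEIS1 peak in 1 library after EtOH. The summit of that EtOH peak lay 379 and 365 bp from the summits of TGIF1 4-OHT replicates 1 and 2. MEIS1 summits after 4-OHT lay 24 and 68 bp from the summit of TGIF1 4-OHT replicate 1, and 10 and 82 bp from that of replicate 2. With 1 EtOH peak this shift in position has no replicate.

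By the definition used at Runx1, 1 of the 3 TGIF1 regions at Gata2 overlapped reproducible MEIS1 EtOH (beside 60.9% in the genome) and 2 overlapped reproducible MEIS1 4-OHT (beside 51%). Without MEIS1 EtOH replicate 1 the first count was 2 of 3, and without TGIF1 4-OHT replicate 1 it was 5 of 11. Genome shares with a library left out were not determined. Of 7 reproducible MEIS1 EtOH regions 1 carried reproducible TGIF1 (beside 29.8% in the genome), and of 7 reproducible MEIS1 4-OHT regions 2 did (beside 28.8%).

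One MEIS1 region at Gata2 was lost and none was gained. The lost region, 1 of 7 reproducible MEIS1 EtOH regions (14.3%, exact 95% interval 0.361 to 57.9%, beside 2.91% in the genome), lay from 88131758 to 88132248. Its MEIS1 peaks of 312 and 491 bp were at percentiles of 30.5 and 12.2 by length in the EtOH lists, in the shorter part of both, and no TGIF1 peak was called there. Without MEIS1 EtOH replicate 1 the count was 2 of 11, and without MEIS1 EtOH replicate 2 it was 2 of 10. None of 7 reproducible MEIS1 4-OHT regions was gained (beside 3.22% in the genome). Without MEIS1 4-OHT replicate 1 it was 3 of 12. Without MEIS1 EtOH replicate 2 it was 1 of 7, the region from 88179960. Genome shares of lost and gained regions with a library left out were not determined.

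At the 6 Gata2 regions in all 4 MEIS1 lists, the mean length percentile of MEIS1 peaks was 58.8 and 76.0 in the 4-OHT lists, against 53.9 and 64.1 in the EtOH lists. The difference of 8.40 points was under the spread between the 4-OHT replicates (SD 12.2; exact permutation p = 0.667) and leaving out MEIS1 4-OHT replicate 1 or 2 made it 17.0 or -0.23. For MEIS1 EtOH, it was 3.29 with replicate 1 left out and 13.5 with replicate 2 left out. Both 4-OHT values were above both EtOH values at 2 of the 6, from 88003528 to 88004609 and from 88057905 to 88058562, and below at none, beside 13.4 and 13.2% in the genome. At the first of these, MEIS1 EtOH replicate 1 had 2 peaks, of 331 and 350 bp, where each other MEIS1 list had 1 peak, of 966 and 1024 bp after 4-OHT and 1082 bp in EtOH replicate 2. The longest peak stood for a list, so its order there rests on a divided call. The region from 88066461 to 88067680 also had 2 peaks in MEIS1 EtOH replicate 1. Over the 4 regions with 1 peak in each MEIS1 list the difference was 5.63 (exact permutation p = 1.0), with 1 region above.

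**Figure D4:**
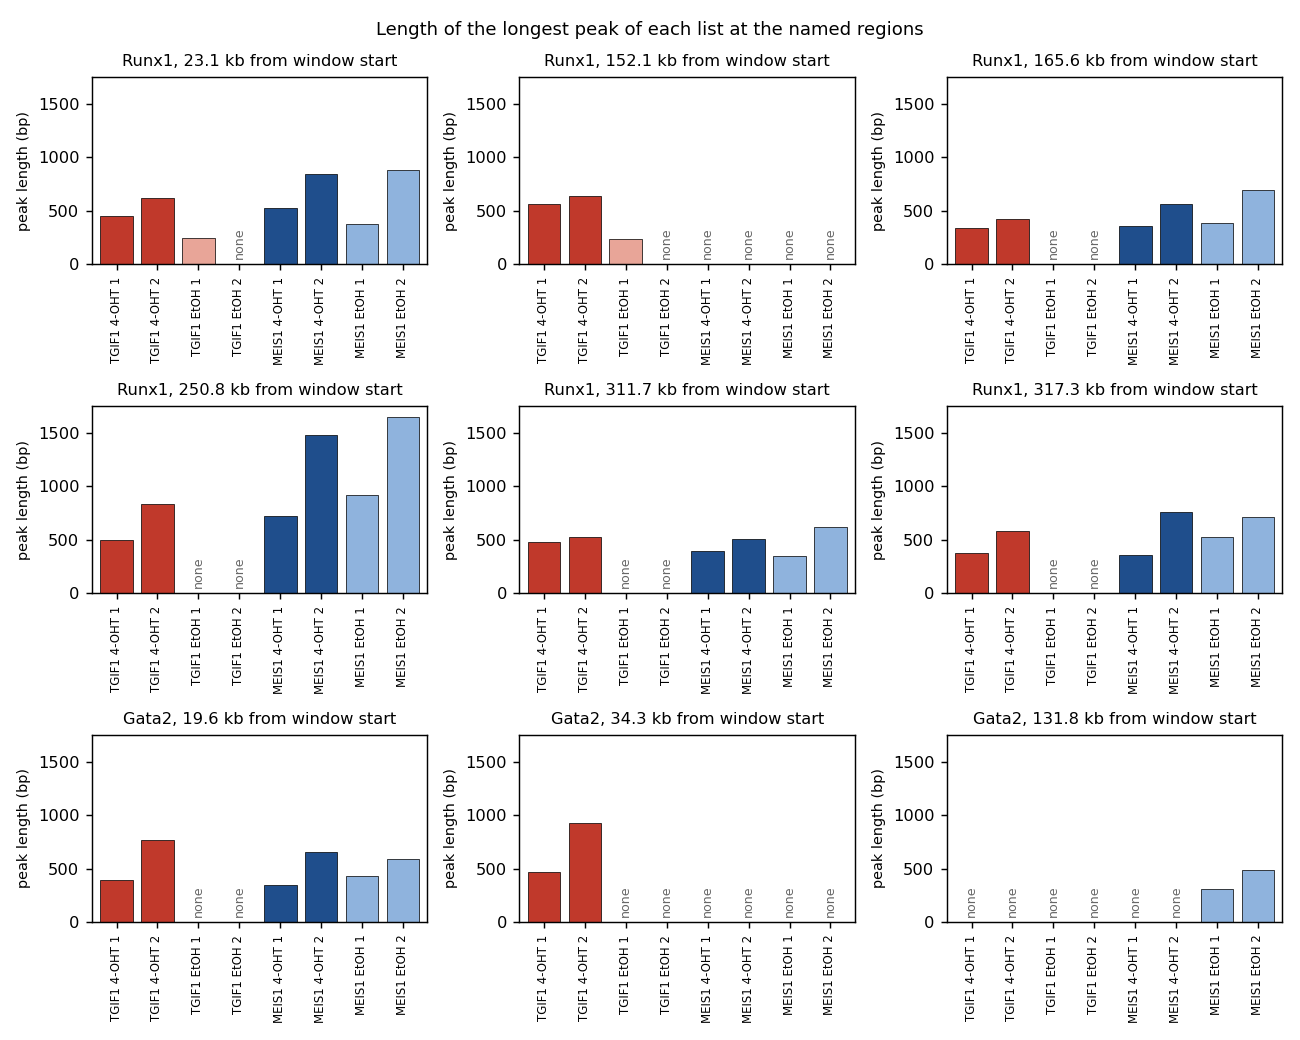
Length in bp of the longest peak of each list at the 6 Runx1 and 3 Gata2 regions named by rule, placed by their distance from the window start; "none" marks a list without a peak. The rule itself sets which proteins are present. TGIF1 4-OHT peaks stand beside MEIS1 peaks at 6 of the regions. At 152.1 kb in Runx1 and 34.3 kb in Gata2 there is TGIF1 without MEIS1. At 131.8 kb in Gata2 there is MEIS1 after EtOH only.

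Summits of TGIF1 and MEIS1 lay near each other where their peaks overlapped. For the 8 library combinations of TGIF1 4-OHT and MEIS1, median distances at Runx1 were 18 to 48 bp, from 5 to 16 pairs of peaks each. In all peaks of the same libraries the medians were 28 to 31 bp. Of the 75 pairs of peaks at Runx1, 48 had summits within 50 bp, and at Gata2 it was 21 of 34; in all peaks it was 62.0%. Pairs share peaks and are not independent. The Gata2 medians, from 1 to 8 pairs of peaks each, spread from 14 to 211 bp.

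Single regions differed in how closely the summits met. At Runx1, from 92823399 to 92824341, the TGIF1 summit of 4-OHT replicate 2 lay at -7 bp from the mean MEIS1 summit, where a negative sign means a lower coordinate. From 92824936 to 92826626, where the TGIF1 peaks measured 313 and 1591 bp, the mean TGIF1 summit lay at 6 bp. From 92867330 to 92868141, by contrast, both TGIF1 summits were within 8 bp of each other and on average at -86 bp from the mean MEIS1 summit, beyond the 35-bp range of the 4 MEIS1 summits. At Gata2, from 88066461 to 88067680, the 1 TGIF1 summit lay at -254 bp from the mean MEIS1 summit, while the summits of the longest peak of each MEIS1 list fell within 40 bp. The last 2 are places where TGIF1 and MEIS1 peaks overlapped but were not centred together; all 4 were picked after their values were seen.

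**Figure D5:**
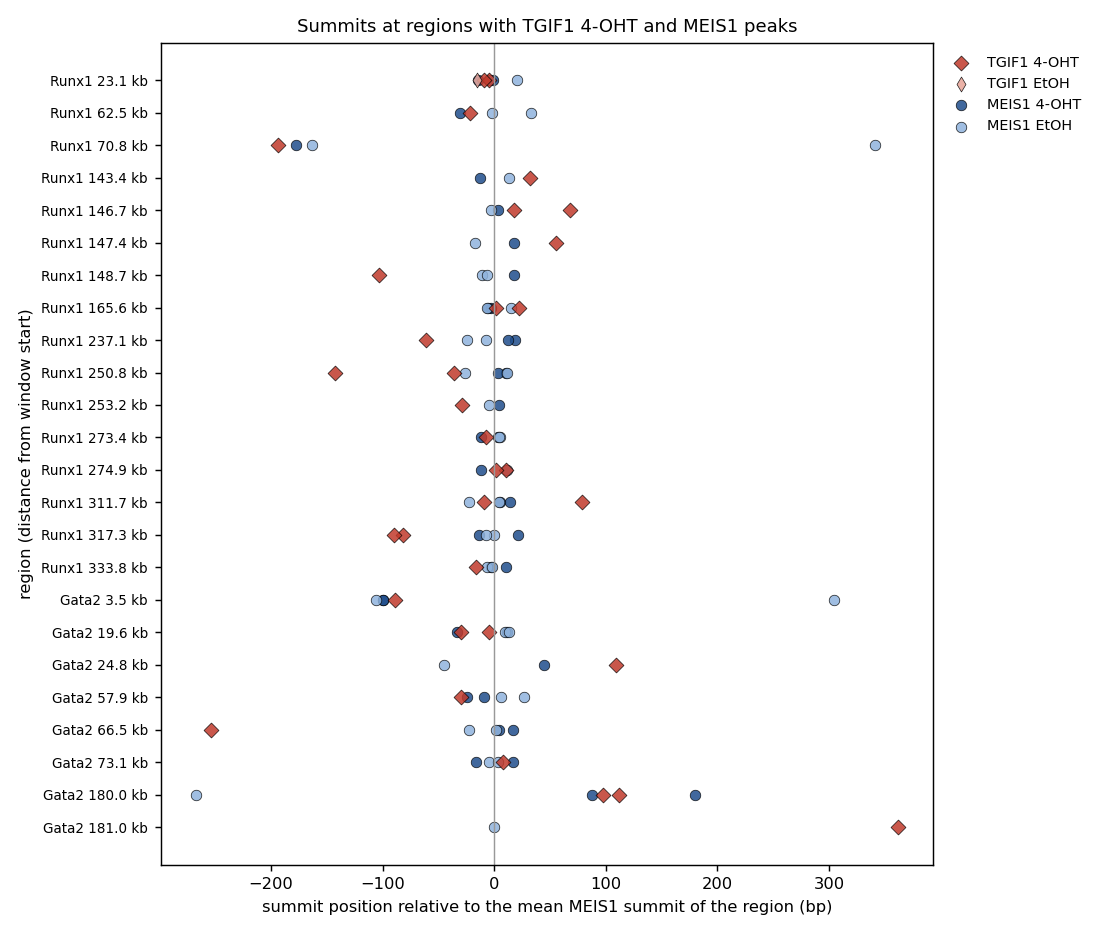
Summit positions at the 16 Runx1 and 8 Gata2 regions with TGIF1 4-OHT and MEIS1 peaks, in bp from the mean MEIS1 summit of each region; rows are regions by distance from the window start, diamonds TGIF1 and circles MEIS1, by treatment. The summit drawn is that of the longest peak of each list. Most summits lie near 0, and the TGIF1 diamond at 66.5 kb in Gata2 stands at -254 bp, left of closely grouped MEIS1 circles. Other summits far from 0 include TGIF1 at 181.0 kb in Gata2 (362 bp) and at 70.8 kb in Runx1 (-193 bp). At 70.8 kb in Runx1 the mean is moved by MEIS1 EtOH replicate 1, at 341 bp. The TGIF1 summit there lay 16 bp from that of MEIS1 4-OHT replicate 2 and 30 bp from that of MEIS1 EtOH replicate 2. A MEIS1 EtOH replicate 1 circle at 3.5 kb in Gata2 stands at 305 bp, where that list had a divided call.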

How the data were processed

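Peak lists of 8 libraries were used; the 9th sample, IgG, was not analysed here. Bowtie 0.12.7 and mm9 stand in the submitters' processing notes. Per the file headers, 1 list (MEIS1 4-OHT replicate 2) came from MACS 1.4.2. The caller of the other lists, and any threshold or control, were not given in the sources used here. The deposited lists hold position, length and summit in bp, 1 list per library, with no score, height or p-value, so depth is unknown; lists ranged from 592 to 48829 peaks. Ranking by score or length had been planned, and length was used. Longer lists hold more peaks at any locus, which is why shares per 10000 peaks are also given.

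Peaks were merged at 1 bp. Peak numbers and shares were compared by two-sided exact permutation over libraries. Regions were named by rule: per locus the 5 leading by length percentile among those in both TGIF1 4-OHT and all 4 MEIS1 lists, those with a TGIF1 EtOH peak, reproducible TGIF1 regions without MEIS1, and lost or gained MEIS1 regions; others named were chosen after their values were seen. Loci, lists and tests were chosen with earlier results of these data known. An mm9 genome or annotation was not used here, so partner genes and genes of like pattern, which had been planned, were not compared. Python 3.11.15, numpy 2.4.6, pandas 2.3.3 and scipy 1.17.1 did the computing. Overlap counts were tested on simulated data and equalled those of bedtools in 112 of 112 comparisons.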

Additional observations from a re-analysis of the deposited data

How the results depend on the processing

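Of 156 alternative values for 20 results, 34 moved and 16 changed sign. In 106, a tested difference kept its sign and its side of the threshold, a count stayed within 1.5 times, or an untested value moved by less than 1 SD; tested differences could still change in size, as the Runx1 TGIF1 share did. As an exact permutation test of 2 against 2 libraries cannot go below p = 0.33, kept directions say nothing about stability. Lists were also trimmed by length to one size per protein (592 peaks for TGIF1, 21173 for MEIS1). This left differences of 0 in peak number and share for TGIF1 at both loci and for MEIS1 at Runx1. For TGIF1 the cut removed every peak at both loci, so its differences of 0 say nothing about the treatments. The MEIS1 lists still held peaks at Runx1. Trimming left 0 of 0 TGIF1 regions with MEIS1 at both loci, and 0 of 4 lost and 1 of 6 gained at Gata2. The MEIS1 differences at Gata2 turned to 0.5 peaks and 0.236 per 10000. The upper 50% by length gave MEIS1 -1.5 peaks and -1.28 per 10000 at Runx1 and 1.5 peaks and 0.993 per 10000 at Gata2, against 0.5, 0.035, -1 and -0.285 with whole lists. It gave 2 of 4 TGIF1 regions with MEIS1 and 1 of 8 lost at Runx1. At Gata2 it gave 0 of 2 with MEIS1, 0 of 2 lost and 1 of 4 gained. The union of replicates gave 16 of 23 TGIF1 regions with MEIS1, 1 of 26 lost and 6 of 31 gained at Runx1. At Gata2 these were 8 of 11, 3 of 12 and 3 of 12. Genome shares of these counts were determined for the main setting only, so the counts here are not set against the genome. At Gata2, a window widened by 50000 bp gave 2 of 4 TGIF1 regions with MEIS1, and summits within 200 bp gave 1 of 7 gained. The median share of windows with at least as many peaks as Gata2 was 11.0%, and 16.6% among windows with a peak. The causes of these changes were not tested, beyond the fewer peaks that shorter lists hold.

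Leaving out single libraries, the MEIS1 peak difference ranged from -8 to 9 at Runx1 and -3.5 to 1.5 at Gata2, and per 10000 from -0.333 to 0.403 and -0.927 to 0.357. The count of TGIF1 regions with MEIS1 ranged from 5 of 8 to 11 of 23 at Runx1, with 7 of 8 without MEIS1 EtOH replicate 1. At Gata2 it ranged from 1 of 3 to 5 of 11. Lost regions ranged from 0 of 15 to 3 of 15 at Runx1 and from 1 of 7 to 2 of 10 at Gata2. Gained regions ranged from 0 of 12 to 6 of 30 and from 0 of 7 to 3 of 12. The numbers of regions differ between these settings, and genome shares were not determined for them, so a higher count is not a higher share. The MEIS1 length percentile difference ranged from -8.54 to 8.22 at Runx1 and -0.23 to 17.0 at Gata2; over regions with 1 peak per MEIS1 list, an alternative chosen after seeing the data, it was 0.031 at Runx1, against -0.16 over all. Where leaving out a library leaves 1, that one stands for its group.

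Replicate numbers are shared between groups, but no label pairs them. Presence in replicate 1 minus replicate 2 correlated across regions between treatments (r = 0.282 for TGIF1, 0.228 for MEIS1), which lists of unequal length can also give. With the replicate number as a block the differences were as without it (14.5 and 7 TGIF1 peaks at Runx1 and Gata2, exact sign-flip p = 0.5 each, the smallest for 2 pairs), and no call changed.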

Other observations

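The Gata2 region on chromosome 6 from 88179960 to 88180995 is followed by one from 88181020 to 88181993, found only in TGIF1 4-OHT replicate 2 (974 bp) and MEIS1 EtOH replicate 2 (593 bp). The TGIF1 summit there lay 362 bp from the MEIS1 summit.

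Of the 57 regions of both loci none had a peak in all 8 lists, as 208 of 60709 (0.343%) did in the genome. A peak in a single list was the whole of 13 regions at Runx1 and 6 at Gata2, 33.3% at each locus, beside 27.2% in the genome. These single-list regions were in TGIF1 4-OHT replicate 2 (6 and 2), MEIS1 4-OHT replicate 2 (6 and 3), MEIS1 EtOH replicate 2 (1 at Runx1) and MEIS1 EtOH replicate 1 (1 at Gata2), and none was in TGIF1 4-OHT replicate 1 or MEIS1 4-OHT replicate 1.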
